A study of Mus musculus with 9 samples.

Results

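The genes described here are 10 components of the blood-brain barrier, read in mouse brain 72 hours (3 days) after intracerebral haemorrhage (ICH, bleeding into the brain tissue). They were taken by symbol from the deposited table: the junction and adhesion genes Cldn5, Ocln, Tjp1, Cdh5 and Pecam1, and the transporter genes Mfsd2a, Slc2a1, Abcb1a, Abcg2 and Slco1a4. All 10 were found among the 36346 genes of the table, and all 10 had at least 1 FPKM (fragments scaled by transcript length and by library size) in each of the 9 libraries. The groups were ICH with pterostilbene (ICH+PTE, a plant stilbenoid related to resveratrol), ICH, and sham, whose label calls it a control treatment. Each group held 3 wild-type C57BL/6 mice, drawn at random from larger groups, and gave 1 library of whole polyA RNA per mouse. The sources used here give no age, sex, brain region, way of making the bleed, or dose and route of PTE.

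The barrier is formed by the endothelial cells of brain capillaries, which are sealed to each other by tight junctions and let through little by way of vesicles. Claudins and occludin span the membranes of neighbouring cells and are tied to the actin skeleton by scaffold proteins, while cadherins hold the cells together below them. What the brain needs then crosses by carriers in the endothelial membrane, and efflux pumps return foreign compounds to the blood. Haemorrhage is known to open this barrier and to draw blood cells into the tissue. In bulk tissue, a change in the number of endothelial cells and a change in RNA per cell cannot be told apart.

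Brain tissue was marked by Snap25, a synaptic protein gene, at 91.1 to 141 FPKM in ICH+PTE, 39.3 to 57.2 in ICH and 92.4 to 109.7 in sham libraries. All 19 pan-endothelial genes outside the members passed the filter for testing, with a summed level of 109 to 174 FPKM in ICH+PTE, 165 to 186 in ICH and 70.1 to 75.4 in sham libraries. Transcripts of other sources moved with the groups or set single libraries apart, and their part in the results below was not tested. The summed FPKM of 12 myeloid genes was 121 to 249 in ICH+PTE, 2999 to 3818 in ICH and 82.8 to 117 in sham. Most of the ICH sum was lysozyme, Lyz2, at 30.9 to 100.3 FPKM in ICH+PTE, 2432 to 3086 in ICH and 35.7 to 67.3 in sham. Of the 10 myeloid genes tested, 10 were higher in ICH than in sham and 8 were lower in ICH+PTE than in ICH. The shares of all tested genes were 31.6% higher in the first comparison and 30.5% lower in the second. The neutrophil genes S100a8 (-0.05, adjusted p = 0.876) and S100a9 (0.20, adjusted p = 0.644) were not called between ICH+PTE and ICH. Against sham they were higher by 2.87 and 3.83 in ICH+PTE and by 2.91 and 3.64 in ICH. Ly6g, another neutrophil gene, was at 0 in all ICH and sham libraries, but not in all of ICH+PTE. The share of all FPKM in mitochondrial genes was 25.5% to 28.9% in ICH+PTE, 13.6% to 16.7% in ICH and 21.7% to 22.9% in sham. The 8 choroid plexus genes summed to 6.40 to 397 FPKM in ICH+PTE, 28.8 to 896 in ICH and 53.7 to 948 in sham, and in each group the library numbered 1 was the highest. Apoa1, on the small-intestine list, had at least 3.92 FPKM in every library. The 15 small-intestine genes left without it summed to 4.45 to 7.29 FPKM in ICH+PTE, 2.002 to 2.56 in ICH and 1.25 to 1.69 in sham.

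Promoter windows of 300 bases at transcript starts annotated by RefSeq (GRCm38.p6) were found for 8 of the 10 genes, all but Cdh5 and Pecam1. Those of Cldn5, Mfsd2a and Slc2a1 are shown because these genes had 3 different patterns over the groups. Cldn5 was highest in ICH, Mfsd2a was highest in ICH+PTE, and Slc2a1 was above sham in both haemorrhage groups and not called between them. Capitals mark exact matches, on either strand, to CTTTGA (TCF/LEF, the nuclear end of Wnt signalling), ACGTG (the core of hypoxia-response elements), CCGGAA (ETS factors of endothelium), CACGTG (E-box, which holds an ACGTG) and GGGCGG (GC box).
Cldn5, chr16:18776597-18776896, plus strand: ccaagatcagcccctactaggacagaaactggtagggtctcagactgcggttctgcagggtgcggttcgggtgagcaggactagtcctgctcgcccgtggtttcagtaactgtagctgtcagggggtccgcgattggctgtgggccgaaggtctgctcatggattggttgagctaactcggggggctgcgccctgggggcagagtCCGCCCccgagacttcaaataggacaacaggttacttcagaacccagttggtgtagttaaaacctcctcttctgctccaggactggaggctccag
Mfsd2a, chr4:122961139-122961438, minus strand: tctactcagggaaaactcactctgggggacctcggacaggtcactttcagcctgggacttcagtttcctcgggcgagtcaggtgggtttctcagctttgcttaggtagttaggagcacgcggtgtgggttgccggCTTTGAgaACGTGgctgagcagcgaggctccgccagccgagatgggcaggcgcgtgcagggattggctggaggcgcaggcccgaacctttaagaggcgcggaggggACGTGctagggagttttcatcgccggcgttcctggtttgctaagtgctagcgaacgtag
Slc2a1, chr4:119108495-119108794, plus strand: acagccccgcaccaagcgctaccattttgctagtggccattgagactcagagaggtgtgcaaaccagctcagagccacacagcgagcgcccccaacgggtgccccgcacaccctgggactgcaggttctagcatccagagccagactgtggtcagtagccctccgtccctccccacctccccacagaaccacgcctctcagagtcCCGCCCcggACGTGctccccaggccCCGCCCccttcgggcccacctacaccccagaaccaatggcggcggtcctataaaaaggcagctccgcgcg

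The Cldn5 window held 1 GC box, the Slc2a1 window 2 GC boxes and 1 ACGTG, and the Mfsd2a window 1 CTTTGA and 2 ACGTG. Of all 32851 windows in the table, 35.7% held GGGCGG, 19.6% ACGTG, 16.0% CTTTGA, 14.9% CCGGAA and 7.15% CACGTG. Over the 11 windows of the 8 genes (Abcg2 has 3 and Ocln has 2), GGGCGG was in 7, ACGTG in 3, CTTTGA in 2, CCGGAA in 1 and CACGTG in 0. The windows of Abcb1a (chr5:8566841-8567140) and Tjp1 (chr7:65371195-65371494) lie at other starts than those of the deposited gene entries, and the Abcb1a window, 1 of the 2 with CTTTGA, lies outside the deposited entry.

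After ICH, 7 of the 10 genes were higher than in sham and 0 were lower, with limma on log2(FPKM + 0.5) at an adjusted p under 0.05. Of all 15376 tested genes, 31.6% were called higher and 32.1% lower, or 63.7% in either direction. The median difference was 0.78 on the log2 scale over the 10 genes and -0.02 over all tested genes. The rise was large for Cdh5, Cldn5 and Pecam1, intermediate for Slc2a1 and Abcg2, and small for Slco1a4 and Abcb1a, while Ocln, Tjp1 and Mfsd2a were not called. In ICH+PTE mice, Cldn5, Cdh5 and Pecam1 were lower than in ICH and Mfsd2a was higher, and the other 6 were not called, where 30.5% of all tested genes were called lower and 26.4% higher. Against sham, 6 of 10 were higher in ICH+PTE and 0 lower, where 11.3% of tested genes were called higher. Values below are FPKM per library, and changes are differences of log2(FPKM + 0.5) with their standard error, a scale that understates changes of low genes.

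**Figure D1:**
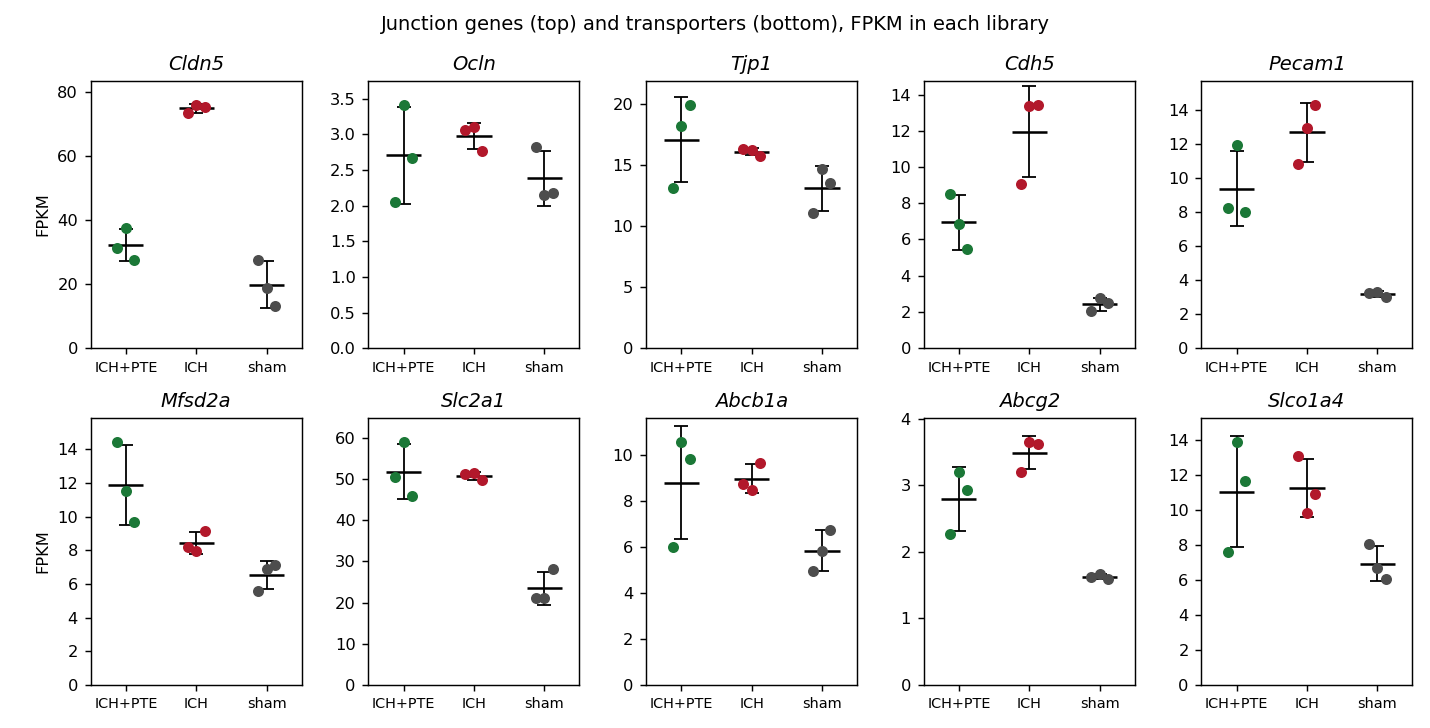
FPKM (vertical axes, from 0) of the 5 junction genes and the 5 transporter genes in each of the 9 libraries (points), with the group mean and SD over 3 mice (bars). Cldn5 lies at 73.3 to 75.8 FPKM in ICH, above all libraries of the other groups, whereas Mfsd2a is highest in ICH+PTE at 9.67 to 14.4 FPKM.

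Cldn5 encodes claudin-5, the main claudin of brain endothelium, which seals the barrier against small molecules (ENSMUSG00000041378, chromosome 16, 18776847 to 18778262). It was at 31.3, 37.4 and 27.5 FPKM in ICH+PTE, at 73.3, 75.8 and 75.3 in ICH, and at 27.6, 18.7 and 13.1 in sham libraries. The 3 ICH libraries lay close together and above all others, and sham 1 reached into the range of ICH+PTE. ICH averaged 74.8 ± 1.299 FPKM and sham 19.8 ± 7.34 (SD, n = 3 in each group). ICH exceeded sham by 1.95 ± 0.22 (adjusted p = 3.98e-05, limma). ICH+PTE, at 32.1 ± 4.99 FPKM, was 1.22 ± 0.22 below ICH (-1.22, adjusted p = 0.00110). Against sham it was 0.73 ± 0.22 higher (adjusted p = 0.0374), a call that was lost without any 1 of 7 libraries in turn (adjusted p 0.0514 to 0.109) and with 2 other settings.

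Cdh5 encodes VE-cadherin, the adherens junction cadherin of endothelial cells (ENSMUSG00000031871, chromosome 8, 104101625 to 104144511). Its levels were 8.52, 6.85 and 5.46 FPKM in ICH+PTE, 9.04, 13.4 and 13.4 in ICH, and 2.04, 2.75 and 2.49 in sham. The 3 groups did not overlap, and ICH 1 lay nearest to ICH+PTE 1. The differences were 2.07 ± 0.19 for ICH against sham (adjusted p = 1.22e-05), -0.74 ± 0.19 for ICH+PTE against ICH (adjusted p = 0.00769) and 1.33 ± 0.19 for ICH+PTE against sham (adjusted p = 0.00141).

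Pecam1 encodes CD31, an adhesion molecule of endothelial junctions that platelets and several leukocytes also carry (ENSMUSG00000020717, chromosome 11, 106654217 to 106750628). It was at 8.22, 11.9 and 7.97 FPKM in ICH+PTE, 10.8, 12.9 and 14.2 in ICH, and 3.25, 3.30 and 3.00 in sham. ICH+PTE 2 stood inside the range of ICH, and both groups lay well above sham. ICH exceeded sham by 1.83 ± 0.16 (adjusted p = 8.22e-06) and ICH+PTE exceeded sham by 1.3995 ± 0.16 (adjusted p = 4.07e-04). The difference between ICH+PTE and ICH was -0.43 ± 0.16 (adjusted p = 0.0385), and this call was lost in 11 of 21 other settings, with adjusted p up to 0.297 once haemoglobin and mitochondrially encoded genes were removed. The myeloid sum given above was highest in ICH, and the 7 platelet genes summed to 1.69 to 3.44 FPKM in ICH+PTE, 2.29 to 4.31 in ICH and 1.80 to 2.19 in sham. Their part in the Pecam1 values was not tested.

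Ocln and Tjp1 were not called in any of the 3 comparisons. Ocln encodes occludin, a tight junction membrane protein (ENSMUSG00000021638, chromosome 13, 100496507 to 100552718). It was low in every library, at 2.05, 3.41 and 2.67 FPKM in ICH+PTE, 3.06, 3.10 and 2.77 in ICH, and 2.83, 2.15 and 2.18 in sham. The groups overlapped, and the differences were 0.28 for ICH against sham (95% interval -0.09 to 0.65, adjusted p = 0.171; called with array weights, adjusted p = 0.0233) and -0.14 for ICH+PTE against ICH (-0.51 to 0.24, adjusted p = 0.508). Against sham, ICH+PTE differed by 0.14 (-0.23 to 0.51, adjusted p = 0.570).

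Tjp1 encodes ZO-1, the scaffold beneath tight junctions of endothelium, epithelium and other cells (ENSMUSG00000030516, chromosome 7, 65296165 to 65527696). It was at 13.2, 18.2 and 19.9 FPKM in ICH+PTE, 16.3, 16.3 and 15.7 in ICH, and 11.1, 14.7 and 13.5 in sham. Every ICH library lay above every sham library, but by little, and ICH+PTE spread over both ranges. ICH exceeded sham by 0.30 (95% interval -0.04 to 0.64, adjusted p = 0.114), a rise that was called without ICH+PTE 1 (adjusted p = 0.0353) and with only the 2 groups compared (0.0421). ICH+PTE differed from ICH by 0.06 (-0.28 to 0.40, adjusted p = 0.746) and from sham by 0.36 (0.02 to 0.70, adjusted p = 0.117), the second called without ICH+PTE 1 (0.53, adjusted p = 0.0147).

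Of the 5 transporters, only Mfsd2a was called between ICH+PTE and ICH. It encodes the carrier that brings lysophospholipids with docosahexaenoic acid into the brain and that holds down vesicle traffic through the endothelium (ENSMUSG00000028655, chromosome 4, 122946850 to 122961188). Its levels were 14.4, 11.5 and 9.67 FPKM in ICH+PTE, 8.17, 7.96 and 9.17 in ICH, and 5.61, 6.88 and 7.11 in sham. The 3 groups did not overlap, with ICH+PTE the highest and its library 1 well above the others. ICH+PTE exceeded sham by 0.81 ± 0.15 (adjusted p = 0.00467) and ICH by 0.46 ± 0.15 (adjusted p = 0.0235). The call against ICH was lost without ICH+PTE 1 (0.31, adjusted p = 0.0696), ICH 1 (0.0616) or ICH 2 (0.0742), with array weights (0.32, adjusted p = 0.0532), with no filter (0.0585) and without the 3 libraries numbered 1 (0.29, adjusted p = 0.0882). ICH itself exceeded sham by 0.35 (95% interval 0.02 to 0.68, adjusted p = 0.0606), a rise called in 4 of 21 other settings. Without the 3 libraries numbered 1, Slco1a4 was also higher in ICH+PTE than in ICH, by 0.286. Ly6c1, Fzd4 and Cavin2, from the vessel lists below, were called higher in ICH+PTE than in ICH too. A higher level in ICH+PTE than in ICH is therefore not particular to Mfsd2a.

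Slc2a1 encodes GLUT1, the glucose carrier of the barrier, which astrocytes also make (ENSMUSG00000028645, chromosome 4, 119108711 to 119137983). It was at 50.5, 59.0 and 45.9 FPKM in ICH+PTE, 51.3, 51.5 and 49.7 in ICH, and 21.2, 21.03 and 28.1 in sham. Both haemorrhage groups lay above all sham libraries, and the ICH range fell inside that of ICH+PTE. The differences from sham were 1.11 ± 0.13 in ICH (adjusted p = 5.18e-05) and 1.13 ± 0.13 in ICH+PTE (adjusted p = 4.85e-04). ICH+PTE differed from ICH by 0.02 (95% interval -0.27 to 0.31, adjusted p = 0.904). This difference was 0.26 with haemoglobin and mitochondrially encoded genes removed (adjusted p = 0.136) and 0.24 with quantile normalization (adjusted p = 0.15003). Slc2a3, the neuronal glucose transporter GLUT3, went the other way after ICH: it was at 16.0, 13.0 and 14.9 FPKM in ICH+PTE, 8.43, 6.53 and 7.91 in ICH, and 17.0, 18.6 and 20.0 in sham. It fell by 1.23 in ICH against sham (adjusted p = 1.84e-05) and was 0.90 higher in ICH+PTE than in ICH (adjusted p = 2.03e-04).

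Abcb1a encodes P-glycoprotein, the efflux pump of brain capillaries (ENSMUSG00000040584, chromosome 5, 8660077 to 8748575). It was at 6.00, 10.6 and 9.83 FPKM in ICH+PTE, 8.75, 8.46 and 9.67 in ICH, and 4.95, 5.84 and 6.73 in sham. ICH+PTE 1 sat among the sham libraries, while the other two ICH+PTE libraries were above every ICH library. ICH exceeded sham by 0.59 ± 0.19 (adjusted p = 0.0208), a call lost without sham 1 (0.0735) or ICH 3 (0.0677), with TPM (0.0967) and with no filter (0.0637). ICH+PTE exceeded sham by 0.53 (95% interval 0.10 to 0.95, adjusted p = 0.0724), which was called without ICH+PTE 1 (0.76, adjusted p = 0.00444) and with the replicate number as a block (adjusted p = 0.0356). Against ICH it differed by -0.06 (-0.48 to 0.36, adjusted p = 0.803).

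Its close paralog Abcb1b, which can share reads with it, was at 1.62, 1.003 and 1.05 FPKM in ICH+PTE, 1.53, 1.94 and 1.89 in ICH, and 0.682, 0.440 and 0.448 in sham. Abcb1b was 1.16 higher in ICH than in sham (adjusted p = 3.42e-04). The Abcb1a level was 3.71, 10.5 and 9.39 times that of Abcb1b in ICH+PTE, 5.70, 4.36 and 5.12 times in ICH, and 7.26, 13.3 and 15.0 times in sham. Abcb1a was thus the larger of the pair in all 9 libraries.

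Abcg2 encodes BCRP, the other large efflux pump of the barrier (ENSMUSG00000029802, chromosome 6, 58584523 to 58695676). It was at 2.27, 3.20 and 2.93 FPKM in ICH+PTE, 3.21, 3.65 and 3.62 in ICH, and 1.62, 1.67 and 1.60 in sham. The 3 groups did not overlap, although ICH+PTE 2 lay next to ICH 1. ICH exceeded sham by 0.91 ± 0.13 (adjusted p = 1.93e-04) and ICH+PTE exceeded sham by 0.62 ± 0.13 (adjusted p = 0.00890). ICH+PTE differed from ICH by -0.28 (95% interval -0.58 to 0.01, adjusted p = 0.0898), a fall called without ICH+PTE 2 (-0.37, adjusted p = 0.0462).

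Slco1a4 encodes an organic anion transporter of rodent brain capillaries (ENSMUSG00000030237, chromosome 6, 141805440 to 141856171). It was at 7.60, 13.9 and 11.6 FPKM in ICH+PTE, 13.1, 9.81 and 10.9 in ICH, and 8.05, 6.67 and 6.07 in sham. ICH+PTE 1 again sat within the sham range, and the other two were within or above that of ICH. ICH exceeded sham by 0.66 ± 0.20 (adjusted p = 0.0152), a call lost without sham 3 (0.0567) or ICH 1 (0.0581) and with no filter (0.0512). ICH+PTE exceeded sham by 0.60 (95% interval 0.16 to 1.05, adjusted p = 0.0547), which was called without ICH+PTE 1 (0.84, adjusted p = 0.00636), and differed from ICH by -0.06 (-0.51 to 0.39, adjusted p = 0.821).

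**Figure D2:**
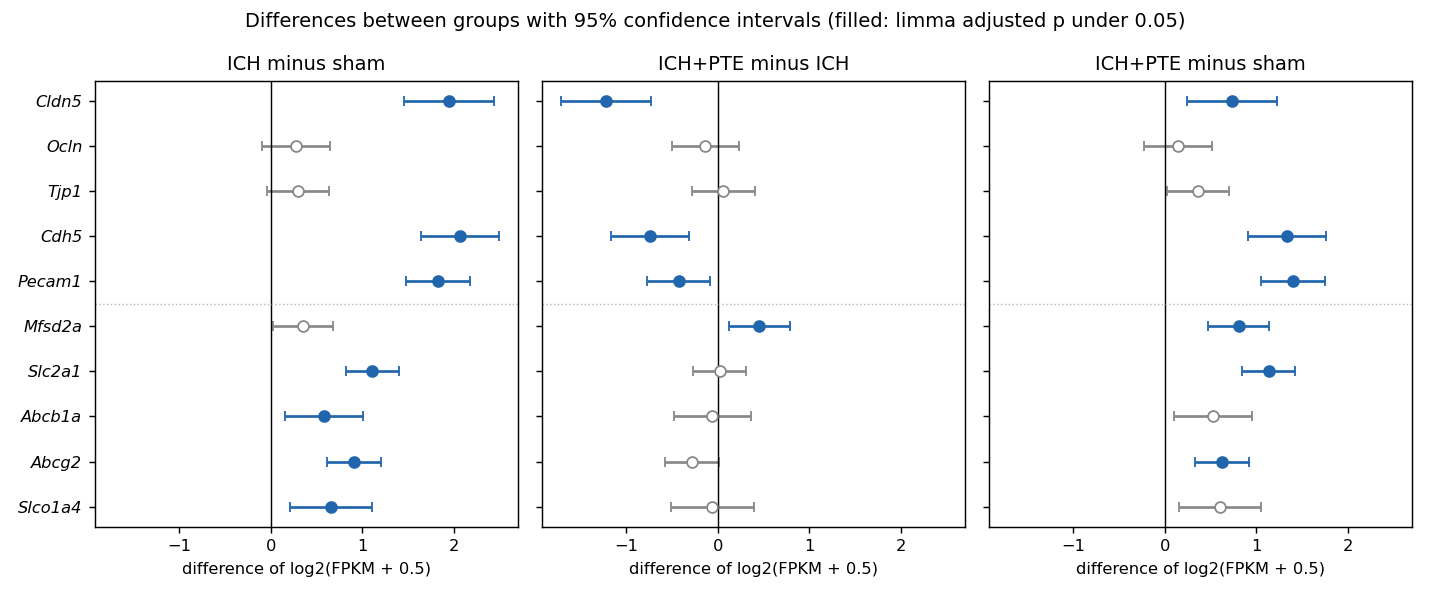
Differences of log2(FPKM + 0.5) between groups (horizontal axes) with 95% confidence intervals for the 10 genes (rows), in 1 panel per comparison; filled points had a limma adjusted p under 0.05. In ICH minus sham all 10 estimates are above 0 and 7 are filled, and in ICH+PTE minus ICH the estimates run from -1.22 for Cldn5 to 0.46 for Mfsd2a.

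In counts of groups that do not overlap, 9 of the 10 genes were higher in every ICH library than in every sham library, Ocln being the exception, where 35.7% of all tested genes were; 0 of the 10 were lower without overlap, against 37.8% of tested genes. Between ICH+PTE and ICH, Cldn5, Cdh5 and Abcg2 were lower without overlap (34.5% of tested genes) and Mfsd2a higher (30.3%). By limma, 30.5% of all tested genes were lower and 26.4% higher in that comparison, or 56.9% in either direction, so the members called were no larger a share than that of all tested genes. Between ICH+PTE and sham 5 genes were higher without overlap (18% of tested genes), and the 6 called higher stand against 11.3% of tested genes called higher and 12.1% called lower. ICH+PTE against ICH and ICH against sham share the ICH libraries, and both comparisons with sham share the sham libraries, so the counts are not independent. Without the 3 libraries numbered 1, which were highest in choroid plexus transcripts, the counts were 7 higher in ICH against sham, 2 lower and 0 higher in ICH+PTE against ICH, and 9 higher in ICH+PTE against sham.

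The order of levels changed with the groups. FPKM is scaled by transcript length, so levels of different genes can be set side by side. Slc2a1 led in ICH+PTE at a mean of 51.8 FPKM, followed by Cldn5 at 32.1 and Tjp1 at 17.1, and these first 2 steps were free of overlap. In ICH, Cldn5 led at 74.8, above Slc2a1 at 50.8 and Tjp1 at 16.1, again without overlap. In sham, Slc2a1 at 23.4, Cldn5 at 19.8 and Tjp1 at 13.1 overlapped in turn. Below them in ICH+PTE came Mfsd2a, Slco1a4, Pecam1, Abcb1a and Cdh5, from 11.9 FPKM to 6.94 FPKM. Each of these overlapped with the next, except Cdh5, which did not overlap with Abcg2. Mfsd2a was the fourth gene in ICH+PTE, the eighth in ICH and the fifth in sham, while Ocln and Abcg2 had the lowest levels in ICH+PTE and in ICH. In sham, Abcg2 was the lowest at 1.63 FPKM, and Ocln at 2.38 overlapped with Cdh5 at 2.43.

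The 3 ratios given first, with Cldn5, the gene highest in ICH, as denominator, were lowest in the ICH libraries. The Mfsd2a level over that of Cldn5 was 0.462, 0.308 and 0.351 in ICH+PTE, 0.111, 0.105 and 0.122 in ICH, and 0.203, 0.367 and 0.544 in sham. All 3 ICH libraries lay below every other library. For Tjp1 over Cldn5 the ratios were 0.421, 0.486 and 0.722 in ICH+PTE, 0.222, 0.215 and 0.209 in ICH, and 0.401, 0.784 and 1.03 in sham. Slc2a1 over Cldn5 was 1.62, 1.58 and 1.67 in ICH+PTE and 0.699, 0.679 and 0.660 in ICH, with a wide 0.765, 1.12 and 2.15 in sham. Pecam1 over Cdh5 was 0.965, 1.74 and 1.46 in ICH+PTE, 0.963 to 1.20 in ICH and 1.20 to 1.60 in sham, so these groups overlapped. Cdh5 over Cldn5 was 0.183 to 0.272 in ICH+PTE, 0.123 to 0.178 in ICH and 0.0738 to 0.191 in sham. Abcb1a over Abcg2 was 2.65 to 3.36 in ICH+PTE, 2.32 to 2.73 in ICH and 3.06 to 4.22 in sham. In both ratios ICH overlapped with another group.

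To set each gene against other endothelial genes, its log2 level was expressed relative to the mean log2 level of the 19 pan-endothelial genes. These include the VEGF receptors Flt1 and Kdr and the angiopoietin receptor Tek. The 19 genes did not move alike, at 0.17 to 2.01 in ICH against sham and -1.86 to 0.52 in ICH+PTE against ICH. Their mean is therefore not a measure of the amount of endothelial RNA alone. That mean was 2.15, 2.75 and 2.30 in ICH+PTE, 2.88, 3.08 and 3.08 in ICH, and 1.83, 1.76 and 1.68 in sham. The 3 groups did not overlap. Against it, Cldn5, Cdh5 and Pecam1 were higher in all ICH than in all sham libraries, by 0.69, 0.81 and 0.57. Over all 15361 tested symbols, 8.18% were higher in this way. Some of the pan-endothelial genes also rose more than their mean, which differed by 1.26 between ICH and sham. Among them were Clec14a (2.01) and Tie1 (1.75), so a rise above the mean is not particular to these members. Ocln (-0.98), Tjp1 (-0.96), Mfsd2a (-0.91), Abcb1a (-0.67), Slco1a4 (-0.60) and Abcg2 (-0.35) were lower without overlap, as were 83.0% of all tested symbols, so their fall against the endothelial mean is not particular to them. Slc2a1 (-0.15) overlapped. These differences are descriptions without a test.

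Between ICH+PTE and ICH, the relative level of Cldn5 was lower without overlap (-0.60, as in 11.9% of tested symbols). It was higher without overlap for Mfsd2a (1.07), Tjp1 (0.68), Slc2a1 (0.64), Abcb1a (0.56), Ocln (0.48) and Abcg2 (0.33), where 54.7% of tested symbols were. Cdh5 (-0.12), Pecam1 (0.19) and Slco1a4 (0.56) overlapped. Against sham, the relative levels of Cdh5 (0.69) and Pecam1 (0.76) in ICH+PTE were higher without overlap, as for 2.49% of tested symbols, and Ocln (-0.50) was lower, as for 66.0%. The other 7 genes overlapped with sham. The 19 pan-endothelial genes themselves ran from -0.20 to 1.21 in ICH+PTE against sham, where their mean differed by 0.64. In ICH+PTE against ICH they ran from -1.86 to 0.52, where their mean differed by -0.62. Departures from that mean in either direction are therefore not particular to these members.

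**Figure D3:**
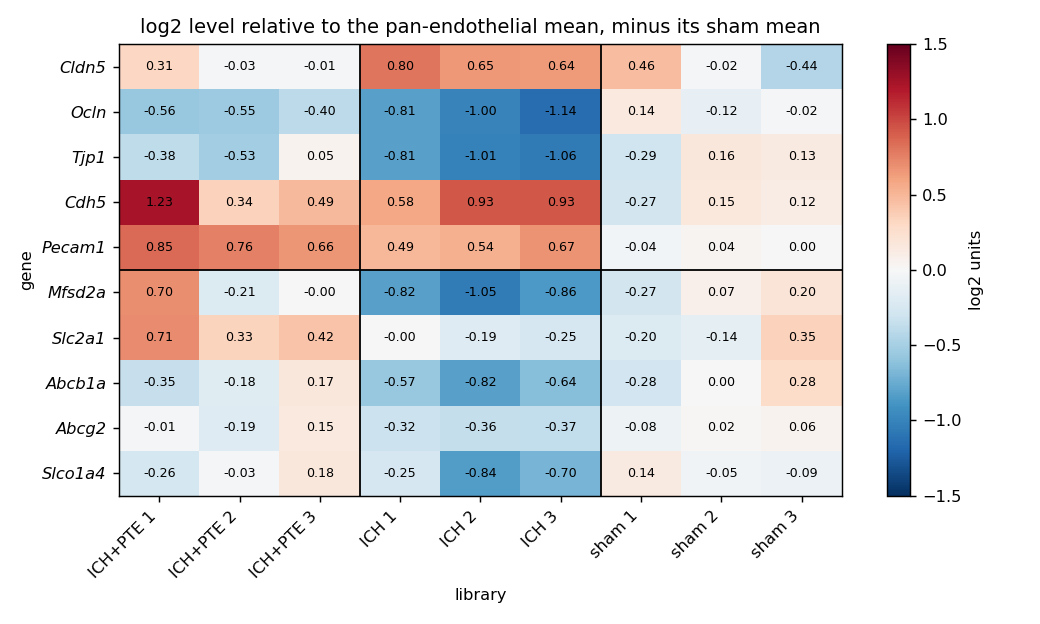
Log2 level of each gene (rows) relative to the mean of 19 pan-endothelial genes in each library (columns), minus the sham mean of that value, in log2 units (colour and printed value). In ICH, Cldn5, Cdh5 and Pecam1 are above the sham mean in all 3 libraries and Ocln, Tjp1, Mfsd2a, Abcb1a, Abcg2 and Slco1a4 are below it.

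The pan-endothelial genes themselves were higher in ICH than in sham in 18 of 19, with a median difference of 1.31, and 0 were lower. Of all tested genes, 31.6% were higher and 32.1% lower. Clec14a, an endothelial C-type lectin, had their largest rise (2.01, adjusted p = 7.27e-06), at 5.08, 5.37 and 5.52 FPKM in ICH against 1.26, 0.829 and 0.786 in sham. In ICH+PTE, 9 of the 19 pan-endothelial genes were lower than in ICH and 1 higher (median -0.46). Of all tested genes, 30.5% were lower and 26.4% higher there, or 56.9% in either direction. Sox18, an endothelial transcription factor, fell by 1.86 (adjusted p = 0.00114). Ly6c1, a surface protein of brain capillaries, was the pan-endothelial gene called higher (0.52, adjusted p = 0.0434). Against sham, 11 of 19 were higher in ICH+PTE and 0 lower (median 0.68), where 11.3% of all tested genes were higher. Ly6c1 again rose most, by 1.21 (adjusted p = 0.00247).

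Other junction genes divided. Of 21 listed, 17 were tested, with 10 higher and 4 lower after ICH (median 0.48 against sham). Of all tested genes, 31.6% were higher and 32.1% lower in that comparison. F11r, which encodes the junctional adhesion molecule JAM-A, rose by 1.84 (adjusted p = 1.56e-05), at 11.3, 13.4 and 11.8 FPKM in ICH against 3.21, 2.98 and 2.90 in sham. Cldn12, a claudin not restricted to endothelium, fell by 1.06 (adjusted p = 3.28e-05). In ICH+PTE against ICH, 10 were lower and 3 higher (median -0.43), where 30.5% and 26.4% of all tested genes were. F11r was at -0.95 (adjusted p = 0.00128) and the adherens junction scaffold Afdn at 0.69 (adjusted p = 0.00149). Against sham, 5 were higher and 1, Cldn12 (-0.48, adjusted p = 0.0160), was lower. Esam, an endothelial adhesion molecule, had the largest rise there (1.02, adjusted p = 4.70e-04). In that comparison 11.3% of all tested genes were higher and 12.1% lower.

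Of 18 other transporter and receptor genes of the barrier, 10 were higher after ICH and 1 was lower (median 0.60 against sham). Of all tested genes, 31.6% were higher and 32.1% lower in that comparison, or 63.7% in either direction. The amino acid carrier Slc38a5 rose by 1.73 (adjusted p = 8.69e-04) and the apolipoprotein E receptor Lrp8 fell by 0.48 (adjusted p = 0.00438). Slc7a5, the large neutral amino acid carrier, was above sham in both haemorrhage groups, at 18.3, 20.5 and 18.1 FPKM in ICH+PTE, 18.1, 18.9 and 18.2 in ICH, and 9.39, 12.4 and 10.3 in sham. It exceeded sham by 0.76 in ICH (adjusted p = 1.78e-04) and by 0.81 in ICH+PTE (adjusted p = 0.00116). The thyroid hormone carrier Slco1c1 was at 0.01 in ICH against sham (adjusted p = 0.986), and it was low at 3.95 FPKM in ICH+PTE 1 next to 11.9 and 11.5 in the other ICH+PTE libraries. Between ICH+PTE and ICH, 8 of the 18 were lower and 3 higher (median -0.39), from Slc38a5 at -2.35 (adjusted p = 2.10e-04) to Lrp8 at 0.75 (adjusted p = 4.16e-04). Of all tested genes, 30.5% were lower and 26.4% higher there, or 56.9% in either direction. Against sham, 5 of the 18 were higher and 0 lower in ICH+PTE (median 0.25), led by the lactate carrier Slc16a1 (1.03, adjusted p = 0.00307). In that comparison 11.3% of all tested genes were higher and 12.1% lower.

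Genes of the Wnt pathway that keeps the barrier phenotype, with endothelial barrier transcription factors, were called in 10 of 18, with 8 higher and 2 lower after ICH (median 0.39), a smaller share than the 63.7% of all tested genes called in that comparison. The transcription factor Foxf2 rose by 1.503 (adjusted p = 1.13e-04). In ICH+PTE against ICH, 9 were lower and 2 higher (median -0.44), where 30.5% and 26.4% of all tested genes were. Foxf2 was at -0.87 (adjusted p = 0.00421) and the receptor Fzd4 at 0.56 (adjusted p = 0.0435). Against sham, 5 were higher and 1 lower in ICH+PTE (median 0.15), where 11.3% and 12.1% of all tested genes were. The Wnt inhibitor Apcdd1 was at 0.90 (adjusted p = 0.00410) and the astrocyte-derived ligand Wnt7a at -0.81 (adjusted p = 0.00854).

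Vesicle, fenestration and activation genes had the highest median of the 7 vessel lists outside the members in ICH against sham, 1.78. Of 12 tested genes (of 14 listed) 11 were higher and 0 lower, where 31.6% of all tested genes were higher. Plvap, the diaphragm protein of leaky vessels, rose by 0.81 (adjusted p = 0.0123), at 3.53, 5.46 and 4.92 FPKM in ICH against 2.82, 2.38 and 2.02 in sham. In ICH+PTE against ICH, 9 of 12 were lower and 1 higher (median -0.86), where 30.5% and 26.4% of all tested genes were. Selp, the leukocyte-capturing P-selectin, was at -1.68 (adjusted p = 0.00642) and the caveolar coat gene Cavin2 at 0.57 (adjusted p = 0.00653), while Plvap was not called (-0.34, adjusted p = 0.245). Against sham, 7 of 12 were higher in ICH+PTE and 0 lower (median 0.84), where 11.3% of all tested genes were higher.

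Lists of the other layers of the vessel wall held mostly genes called higher after ICH, where 31.6% of all tested genes were. Mural cell genes were higher in 11 of 12 (median 1.02), with the smooth muscle gene Tagln at 2.66 (adjusted p = 1.11e-04). Astrocyte endfoot and basement membrane genes were higher in 11 of 15 (median 1.03), with the type IV collagen chain Col4a1 at 2.70 (adjusted p = 6.94e-07). Neither list had a gene called lower (0 each), and Myh11, Kcnj10, Dag1, Agrn and Lama2 were not called. In ICH+PTE against ICH, where 30.5% of all tested genes were lower, 8 of 12 mural genes were lower (median -0.56). The largest fall was that of Acta2, smooth muscle actin (-1.38, adjusted p = 2.68e-04). In the endfoot and basement list 10 of 15 were lower (median -0.66), led by Aqp4, the water channel of astrocyte endfeet (-1.27, adjusted p = 3.98e-04). Against sham, 5 of 12 mural and 7 of 15 endfoot and basement genes were higher in ICH+PTE, where 11.3% of all tested genes were. Tagln was at 2.75 (adjusted p = 8.40e-04) and Col4a1 at 1.48 (adjusted p = 1.63e-04). In these lists 1 gene, the matrix organiser Agrn, was lower (-0.30, adjusted p = 0.0308).

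**Figure D4:**
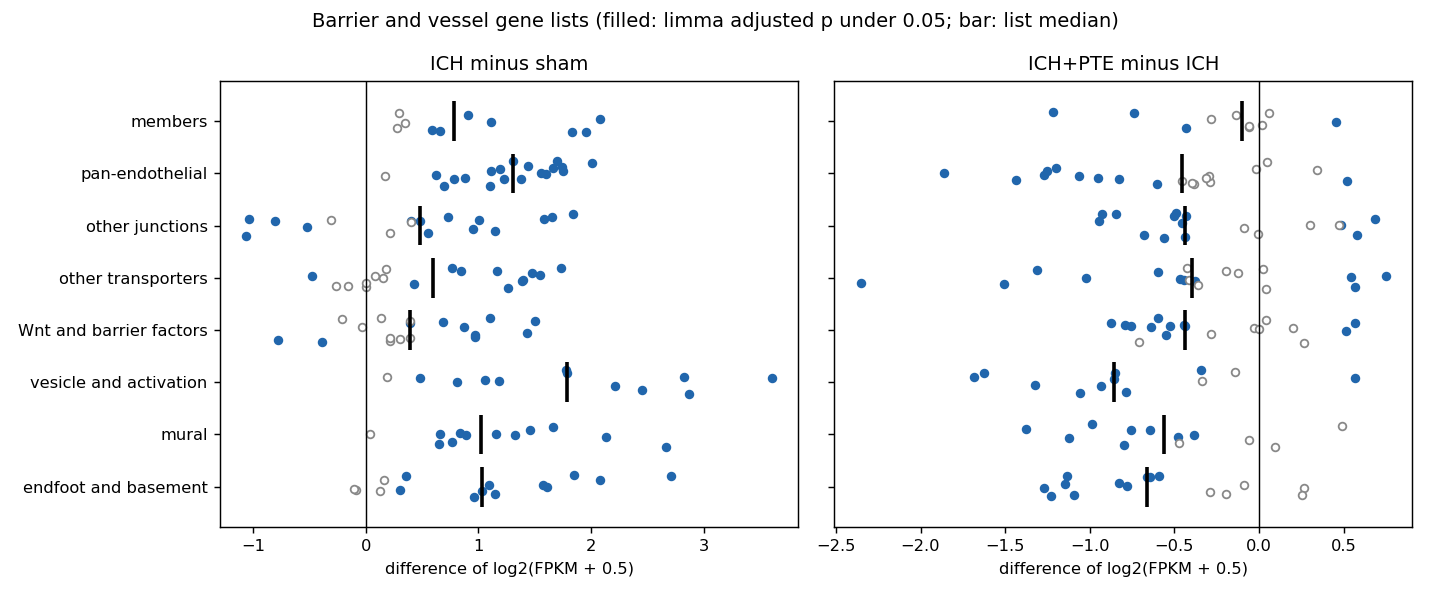
Differences of log2(FPKM + 0.5) (horizontal axes) of single genes (points, spread vertically for sight) in the 10 members and 7 vessel gene lists (rows), for ICH minus sham and ICH+PTE minus ICH. Filled points had a limma adjusted p under 0.05 and bars are list medians. The members' median is 0.78 after ICH and -0.10 in ICH+PTE against ICH, next to 1.31 and -0.46 for the pan-endothelial genes.

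Of the 10 tested hypoxia-response genes, 6 were higher after ICH and 0 lower, and 1 was higher and 7 were lower in ICH+PTE than in ICH. Of all tested genes, 31.6% were higher and 32.1% lower in the first comparison, or 63.7% in either direction. In the second, 30.5% were lower and 26.4% higher, or 56.9% in either direction. The share of hypoxia-response genes called after ICH was thus no larger than that of all tested genes.

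Genes with a pattern over the 9 libraries most like that of a member were sought by the root mean square difference of centred log2 levels among 12226 other genes with a mean of at least 2 FPKM. This is a description, since all 9 points share the group structure. Nearest to Cldn5 were the entry Gm6548 (0.13), the immediate early gene Ier2 (0.14) and the entry Gm4332 (0.17). For Mfsd2a they were Iffo2 (0.11), Pus10 (0.11) and Eef2k, a kinase of the translation elongation factor (0.12). For Slc2a1 they were Adgrf5, an adhesion receptor made by endothelium (0.13), the pseudokinase gene Trib1 (0.16) and F3, tissue factor (0.16). For Tjp1 they included Nhsl1 (0.08) and Hsdl2 (0.09). Among the members, Cdh5 and Pecam1 were nearest to each other (0.26), as were Tjp1 and Abcb1a (0.17), and Mfsd2a and Cldn5 lay farthest apart (0.85).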

How the data were processed

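The authors deposited 1 table of FPKM values for 36346 genes in 9 libraries, 3 each of ICH+PTE, ICH and sham, 72 hours after the procedure. The submitters' processing notes name cutadapt 1.9, HISAT2 2.0.4 and also StringTie 1.3.4d. The libraries were oligo(dT)-selected with dUTP marking, per the labels' protocols. No genome build is named in the sources used here. For 33201 of 36224 shared gene IDs (91.7%) both ends equal those of GENCODE M21 (GRCm38), and gene coordinates are printed as deposited. Columns were matched to libraries by name, and 0 were left over.

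FPKM values are not counts, and depth is unknown. Of low values of single-exon genes, 14.3% to 16.8% were whole multiples of the best step of their library (tolerance 0.05 of a step), so reads could not be recovered and no counting interval is given.

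limma 3.58.1 (R 4.3.3) was fitted to log2(FPKM + 0.5) of the 15376 genes with at least 1 FPKM in at least 3 libraries. Each of the 3 groups had its own mean, which left 6 residual degrees of freedom, and the prior variance followed a trend with level. Calls are at an adjusted p (Benjamini-Hochberg over all tested genes) under 0.05. The script was tested on simulated data. Replicates are separate mice. Of a repeated symbol, the entry with the highest mean was used for lists. The members and the gene lists were chosen with earlier results of these data known. From each vessel list, the named genes are those with the largest called rise and fall in each comparison (mean of at least 2 FPKM in the higher group), plus Plvap, Abcb1b, Slco1c1, Slc2a3 and Slc7a5. Some genes that this rule names are not reported here. No gene-set test was run. Replicate numbers name different mice and were not used for pairing. The alternatives were other pseudocounts (0.1 and 1), filters and scalings, array weights, a replicate block, fits of 2 groups, and each library left out.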

Additional observations from a re-analysis of the deposited data

How the results depend on the processing

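Each comparison of the 10 genes was repeated under 21 other settings. The rises of Cldn5, Cdh5, Pecam1, Slc2a1 and Abcg2 in ICH against sham and the falls of Cldn5 and Cdh5 in ICH+PTE against ICH were called in all of them, over ranges of 1.695 to 2.235, 1.902 to 2.254, 1.699 to 1.95, 0.953 to 1.249, 0.773 to 1.055, -1.335 to -0.965 and -1.07 to -0.521. Leaving out 1 library in turn gave 6 to 9 called members in ICH against sham, 2 to 5 in ICH+PTE against ICH and 5 to 8 in ICH+PTE against sham, and over all genes 8511 to 10361, 7221 to 8765 and 2125 to 3712. The lowest of the last were 2258 without sham 2 and 2125 without sham 3, against 3603. In ICH+PTE against ICH only 2 members, Cldn5 and Cdh5, were called without ICH 2, without ICH+PTE 1, with no filter (2) and, an alternative added after seeing the data, without the libraries numbered 1 (2). Which library trait moves these calls was not tested.

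Some differences between ICH+PTE and ICH that were near 0 and not called changed sign. With quantile normalization Abcb1a was at 0.0261 and Slco1a4 at 0.0420, and with array weights at 0.0236 and 0.0792. With haemoglobin and mitochondrially encoded genes removed, Ocln was at 0.0679, Abcb1a at 0.166 and Slco1a4 at 0.170. Without the libraries numbered 1 they were at 0.0380, 0.164 and 0.286. Leaving out 1 library in turn gave -0.288 to 0.0198 for Ocln, -0.0553 to 0.234 for Tjp1, -0.0768 to 0.103 for Slc2a1, -0.204 to 0.179 for Abcb1a and -0.237 to 0.177 for Slco1a4. Against sham, Ocln in ICH+PTE was at -0.0117 to 0.296.

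Removing haemoglobin and mitochondrially encoded genes moved the median of all genes by -0.11 in ICH against sham and by 0.21 in ICH+PTE against ICH, where 5929 genes were then called higher and 3263 lower, in place of 4065 and 4683. Against sham it gave 2376 higher and 1150 lower in ICH+PTE, in place of 1736 and 1867. TPM moved the median by -0.17 in ICH against sham and -0.13 in ICH+PTE against sham, with 1293 higher and 2942 lower in the second. Relative to the endothelial mean, 6 or 7 members were lower in ICH than in sham and 6 to 8 higher in ICH+PTE than in ICH in all 15 settings run. With the main setting, 83.0% of all tested symbols fell without overlap in the first of these comparisons, and 54.7% rose in the second. Such counts are therefore not particular to the members, and shares of all symbols under the other settings are not given here. With the replicate block 7, 4 and 7 members were called in the 3 comparisons (7, 4 and 6 without it). Deviations of same-numbered libraries correlated at 0.00313 to 0.252 over 9 pairs, and those of differently numbered libraries at -0.302 to 0.190 over 18. All 9 same-numbered pairs were thus above 0. The labels give no shared source, so the numbers were not taken to pair the mice. What same-numbered libraries may share was not tested. Precision is limited by 3 mice a group and an unknown depth.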
